A study of Zea mays with 12 samples.

Results

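Starchy endosperm-enriched genes are described here: 57 of the 39656 genes of maize (Zea mays) in the deposited tables whose transcripts stood higher in starchy endosperm than in aleurone both in the naked endosperm mutant, nkd, and in the inbred line B73. They were chosen from the measured values. Each gene was represented by 1 transcript, and each library was scaled to 1000000 reads over genes (RPM). A gene was kept where the lowest nkd starchy endosperm library was at least 2 times the highest nkd aleurone library, the lowest B73 starchy endosperm library exceeded the highest B73 aleurone library, the B73 starchy endosperm mean was at least 2 times the B73 aleurone mean, and the mean of the 6 starchy endosperm libraries was at least 10. The libraries fall into 4 groups of 3 biological replicates: nkd starchy endosperm, nkd aleurone, B73 starchy endosperm and B73 aleurone. The nkd plants came from the fourth generation of backcrossing to B73, which served as the wild type, and both were grown on the same farm in the same summer. All kernels were collected 15 days after pollination and embedded in paraffin after fixation, and cells of both types were captured from sections with a laser. Linear amplification with T7 RNA polymerase came before sequencing of the polyadenylated RNA. The number of kernels behind each library is not stated, so a p-value measures only how libraries of a group vary.

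The endosperm of a cereal grain holds an inner mass of starchy cells, which fill with starch granules and protein bodies, and an outer aleurone layer, which stores oil and minerals and secretes enzymes at germination. Sucrose that reaches the starchy cells is cleaved, turned into ADP-glucose and built into starch, while zeins, the prolamin storage proteins of maize, are packed into protein bodies of the endoplasmic reticulum. The naked endosperm genes are a duplicate pair that encodes INDETERMINATE-domain transcription factors, and the study asked what they do in the differentiation of these cells. Mutant kernels are known for peripheral cell layers that are incompletely differentiated, so the nkd aleurone libraries come from cells at the position of the aleurone rather than from a normal aleurone.

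Of the 57 members, 45 had an entry in the RefSeq gene table and 10 of these had a gene name. The named members are the 19-kD alpha zein genes z1A1_3/z1A1_4 (1 identifier that is listed under both entries) and z1A1_5, the starch pathway genes sh1, sh2, bt2 and ss1, the protein body gene FL1, the amino acid enzyme gene alt, and the organ size genes BIGE1 and ZAR1. The other 47 members are known here by identifier alone and are given no role. Their identifiers were picked for mention after their values had been seen, apart from those at the thresholds of the rule. Genome positions are not given, because the build behind the identifiers is not named in the sources used here.

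The libraries held 9570998 to 64000784 reads over genes, and no member was at 0 reads in any of them. The nkd loci, which the labels name as mutated without giving the lesions, were transcribed in every library. Nkd1 (GRMZM2G129261) had 126.8 to 161 RPM in nkd starchy endosperm, 128 to 142 in nkd aleurone, 111 to 314 in B73 starchy endosperm and 115 to 183 in B73 aleurone. Nkd2 (GRMZM5G884137) had 42.4 to 65.7 RPM in nkd starchy endosperm, 16.6 to 23.1 in nkd aleurone, 43.6 to 62.7 in B73 starchy endosperm and 52.3 to 73.1 in B73 aleurone. By correlation, B73 starchy endosperm replicates 1 and 2 were not clearly apart from B73 aleurone. Across 20525 genes, B73 starchy endosperm replicate 2 had Pearson correlations of 0.933, 0.945 and 0.905 with B73 aleurone replicates 1, 2 and 3, and of 0.918 and 0.839 with B73 starchy endosperm replicates 1 and 3. Replicate 1 had 0.877, 0.863 and 0.8255 with B73 aleurone replicates 1, 2 and 3, against 0.849 with replicate 3 of its own group. Replicate 3 had 0.788, 0.793 and 0.772 with B73 aleurone replicates 1, 2 and 3, lower than with either library of its own group. Without B73 starchy endosperm replicate 1, 2 or 3 the rule gave 63, 76 or 92 genes, with 47, 52 or 47 of them among the 57.

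The aleurone marker genes, 5 of 5 with reads in every library, summed to 215 to 888 RPM in nkd starchy endosperm and 3788 to 14240 in nkd aleurone. They summed to 149.7 to 962 in B73 starchy endosperm and 861 to 3654 in B73 aleurone, so that B73 starchy endosperm replicate 2 was higher than B73 aleurone replicate 1. H+-PPase, a proton pump, carried most of these sums, with 9091 RPM in nkd aleurone replicate 1 and 909.8 in B73 starchy endosperm replicate 2. The aleurone differentiation gene dek1 overlapped between the cell types in B73, at 10.9, 13.7 and 6.27 RPM in starchy endosperm and 11.5, 18.6 and 17.5 in aleurone. The receptor kinase gene cr4, also needed for aleurone, overlapped there too. LTP3 and Sal1 did not overlap in B73. LTP3 had 0.057, 6.81 and 1.46 RPM in B73 starchy endosperm and 10.7, 19.5 and 34.7 in B73 aleurone. Sal1 had 14.9, 21.3 and 29.15 in B73 starchy endosperm and 36.8, 32.3 and 44.3 in B73 aleurone. The 11 oil body and seed maturation genes summed to 249 to 864 RPM in B73 starchy endosperm and 3546 to 8378 in B73 aleurone. In nkd they summed to 176.5 to 499 and 2578 to 4546. The 13 basal transfer layer genes summed to 723 RPM in nkd starchy endosperm replicate 3 and 395.6 in nkd aleurone replicate 3, against 30.6 to 69.9 in the other 4 nkd libraries and 13.1 to 52.3 in the 6 B73 libraries. BET1, a defining gene of that layer, was above 0 in all 12 libraries. The 18 genes of the maternal pericarp and nucellus summed to 304 to 1045 RPM in nkd starchy endosperm, 442 to 601 in nkd aleurone, 164 to 411 in B73 starchy endosperm and 282 to 449 in B73 aleurone. The part of such cells in the members' values was not tested. None of the 57 members is in any of these lists.

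Together the members held a smaller share of the gene reads in nkd. They took up 5.99%, 2.64% and 2.41% of gene reads in nkd starchy endosperm replicates 1, 2 and 3, against 23.3%, 17.3% and 22.58% in B73 starchy endosperm. In aleurone they took up 0.530%, 0.173% and 0.0955% in nkd and 14.5%, 6.17% and 8.46% in B73. All 3 nkd starchy endosperm libraries lay below all 3 B73 aleurone libraries, whose lowest share was 6.17%. This order did not hold without the zeins and sh1 (below). In captured tissue, fewer cells of a type and less RNA per cell cannot be told apart. The shares are descriptions, since the rule chose the members on these values.

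**Figure D1:**
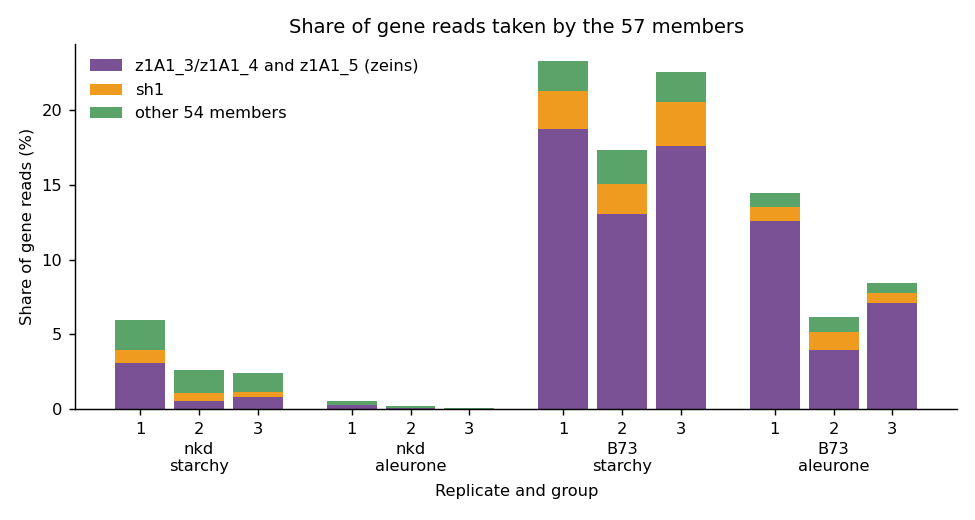
Share of gene reads (%) taken by the 57 members in each of the 12 libraries, stacked as the alpha zeins z1A1_3/z1A1_4 and z1A1_5, sh1, and the other 54 members; bars start at 0. The 3 nkd starchy endosperm bars reach 2.41% to 5.99% and the 3 B73 starchy endosperm bars 17.3% to 23.3%, most of it zein.

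The alpha zeins made most of this difference. The 2 zein members alone took up 3.06%, 0.565% and 0.816% of gene reads in nkd starchy endosperm and 18.8%, 13.1% and 17.6% in B73 starchy endosperm. The 54 members other than the zeins and sh1 together averaged 1.61% ± 0.392 in nkd starchy endosperm and 2.07% ± 0.139 in B73 starchy endosperm (SD, n = 3 each), and 0.131% ± 0.0877 in nkd aleurone and 0.882% ± 0.146 in B73 aleurone. The groups thus lay closer in starchy endosperm than in aleurone once these 3 genes were set aside. The order of nkd starchy endosperm and B73 aleurone turned as well. The 54 members took up 2.03%, 1.57% and 1.24% in nkd starchy endosperm and 0.929%, 0.999% and 0.718% in B73 aleurone.

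In RPM the gap between the cell types was wider in nkd. The ratio of the starchy endosperm mean to the aleurone mean was 2.74 to 50.7 over the members in nkd, with a median of 9.85, and 2.01 to 7.13 in B73, with a median of 2.48. It was larger in nkd for all 57 members, by 0.04 to 4.29 on the log2 scale with a median of 1.89. In nkd 28 members had a ratio of at least 10, while in B73 47 lay under 3 and 1, GRMZM5G836322 at 7.13, reached 4. The width of the B73 gap moved with the scaling. With TMM scaling, an alternative to RPM that was chosen for these ratios after seeing the data, the median ratio was 11.8 in nkd and 3.98 in B73. On that scale 56 of the 57 members had the larger ratio in nkd, the exception being GRMZM2G061912 with 3.21 in nkd and 4.58 in B73, 34 reached 10 in nkd, and 27 reached 4 and none lay under 3 in B73. These ratios chose the members, so no test of them is given. The rule asks for a gap of 2 times in nkd and for no overlap alone in B73, and 6 members kept a gap of 2 times in both genotypes: GRMZM2G014705, GRMZM2G161274, GRMZM2G036708, GRMZM5G822947, GRMZM2G040559 and GRMZM5G836322.

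Outside the members the order of the genotypes rested on the scaling. Of the 9232 genes with a starchy endosperm mean of at least 10, 75.2% had the larger ratio in nkd in RPM, with median ratios of 0.959 in nkd and 0.721 in B73. With TMM scaling 52.7% did, with medians of 1.14 in nkd and 1.13 in B73. In RPM the nkd clause of the rule alone kept 350 of these genes (3.79%), the 2 B73 clauses alone 119 (1.29%), and all clauses 57 (0.617%). The 119 genes kept by the B73 clauses had a median ratio of 4.78 in nkd and 2.48 in B73. Of these, 91 (76.5%) had the larger ratio in nkd. With the cell types exchanged, the same rule kept 570 aleurone-enriched genes.

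By flow cell, each of which carried 1 library of every group, the median ratio over the members was 7.77, 11.1 and 11.8 in nkd and 2.89, 2.13 and 2.92 in B73. Each of the 3 flow cells gave the larger median in nkd, and the smallest in B73 was on the flow cell of B73 starchy endosperm replicate 2.

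**Figure D2:**
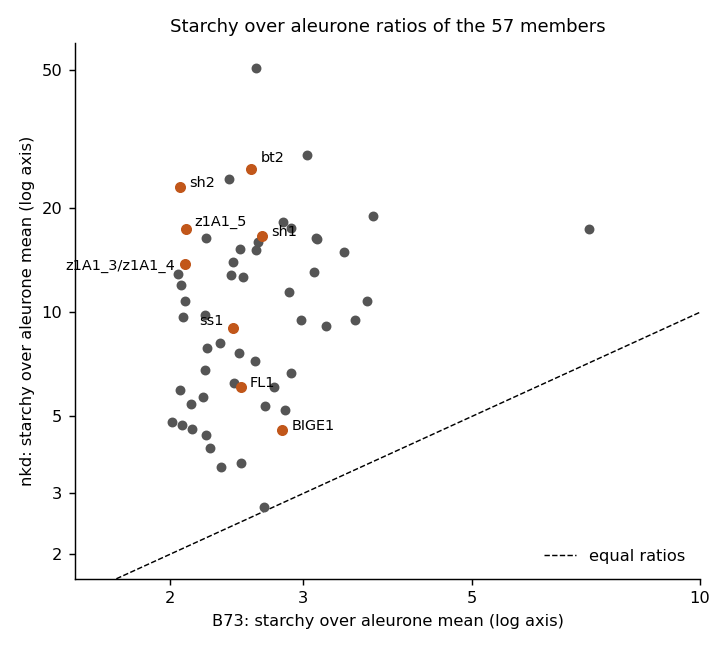
Ratio of the starchy endosperm mean to the aleurone mean (in RPM, both axes logarithmic) for the 57 members, nkd on the vertical and B73 on the horizontal axis; orange points are 8 of the named members and the dashed line marks equal ratios. All 57 points lie above the line on this scale (56 would with TMM scaling), from 2.74 to 50.7 in nkd and from 2.01 to 7.13 in B73.

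**Figure D3:**
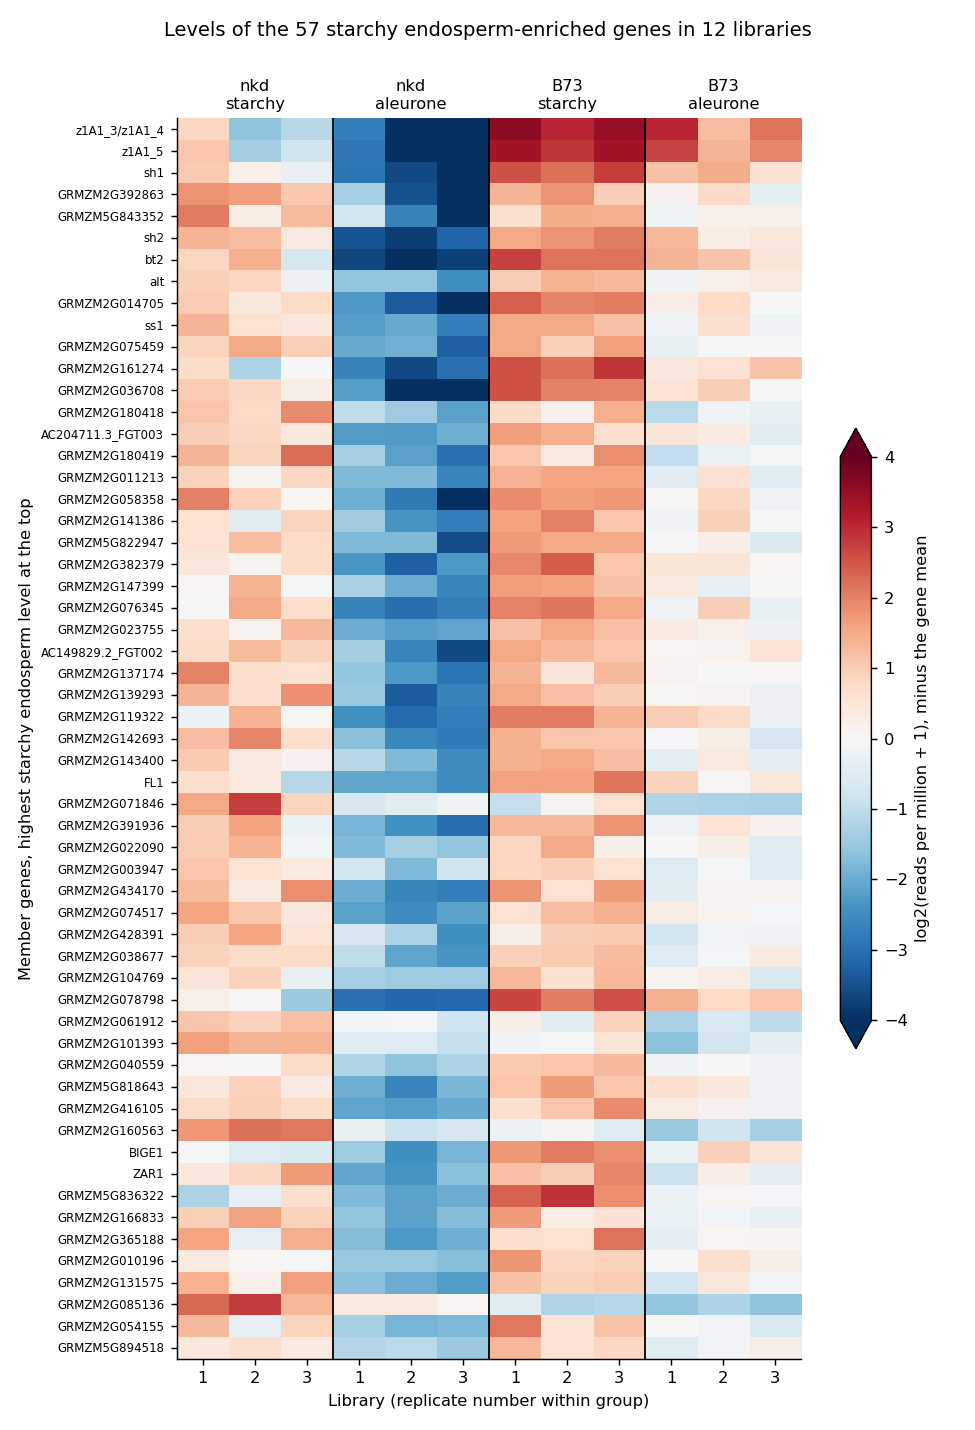
Level of each member (1 line per gene) in the 12 libraries, as log2(RPM + 1) minus the gene's mean over the libraries, with the colour scale limited to −4 and 4. The nkd aleurone columns are the lowest for nearly all genes, and GRMZM2G085136, GRMZM2G160563, GRMZM2G071846 and GRMZM2G101393 are among the exceptions, with their highest values in nkd starchy endosperm.

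The comparison of genotypes within a cell type asks how the members differ between the mutant and B73. It used the deposited normalised reads of each cell type, limma on log2(value + 1) and Benjamini-Hochberg adjustment over all genes tested with a threshold of 0.05. All differences below are nkd minus B73 on that log2 scale, and adding 1 understates the change of low genes. The rule touches these comparisons as well: it needs high B73 starchy endosperm values and low nkd aleurone values. Its mean of at least 10 covers both genotypes, so a gene low in 1 genotype was kept only where it was high in the other. The direction of such genes is not free of the rule. Counts are therefore set beside those for all genes and for genes kept by the clauses of 1 genotype.

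In aleurone, 50 of the 57 members fell in nkd, 1 was higher and 6 did not pass the test (limma). Over all 26496 genes tested, 8.28% were lower and 6.32% higher. The median difference was −3.03 over the members and 0.04 over all genes. In 52 members every nkd library was lower than every B73 library, against 16.8% of all genes. Falls of at least 8-fold were called in 29 members, and the share over all genes was not counted for this. Calls were made for 43 members in every fit that left out 1 library, and the share over all genes was not counted for this either. Single fits of this kind called 1945 to 3724 of all genes, against 3868 with no library left out.

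Genes kept by the clauses of 1 genotype, which include the members, are set beside that count as a description, since each choice used values of these comparisons. The mean of at least 10 over the starchy endosperm libraries of both genotypes applied to these genes as well. Among the 119 genes kept by the B73 clauses, 80 fell in nkd aleurone (67.2%) and 39 in nkd starchy endosperm (32.8%). Among the 350 kept by the nkd clause, 256 of 348 tested fell in nkd aleurone (73.6%) and 41 in nkd starchy endosperm (11.7%).

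In starchy endosperm, 16 members fell in nkd, none was called higher and 41 did not pass (limma). Over all 24582 genes tested, 1.31% were lower and 0.464% higher. The median difference was −1.55 over the members and 0.12 over all genes. In 37 members every nkd library was lower than every B73 library, against 10% of all genes, and in 2 members every one was higher, against 11.3%. At an unadjusted limma p under 0.05, 39 members were lower and 2 higher, against 1873 lower and 1812 higher of all 24582 genes. edgeR called 8 members lower and none higher, against 225 lower and 73 higher of 21836 genes tested. DESeq2 called 24 members lower and 2 higher, against 1089 lower and 608 higher of 24446 genes tested.

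The starchy endosperm calls rest on every library. Fits without nkd starchy endosperm replicate 1, 2 or 3 called 10, 8 or 6 members. Those without B73 starchy endosperm replicate 1, 2 or 3 called 0, 5 or 3, and none of the 16 passed in every such fit. Calls over all genes fell as well, from 437 to 164, 152 or 202 without an nkd library. Without a B73 library they fell to 25, 134 or 211. With the replicate number (flow cell) as a block, 20 members were called. Scaling to the column sum instead of the deposited factors shifted the median of all genes by 0.923 in starchy endosperm, where 9 members were then called lower and 2 higher, and by 0.457 in aleurone, where 48 were called lower and 1 higher. Relative to all genes the members' median in starchy endosperm was −1.65, against −1.67 with the deposited factors.

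All 16 members that fell in starchy endosperm also fell in aleurone, 35 passed in aleurone alone and 6 in neither. The difference was more negative in aleurone for 56 of the 57 members. That order largely restates, on the deposited scale, the larger starchy endosperm to aleurone ratio in nkd that the rule favours. It was not tested. Of the 9232 genes with a starchy endosperm mean of at least 10, 75.2% had the larger ratio in nkd in RPM and 52.7% with TMM scaling.

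**Figure D4:**
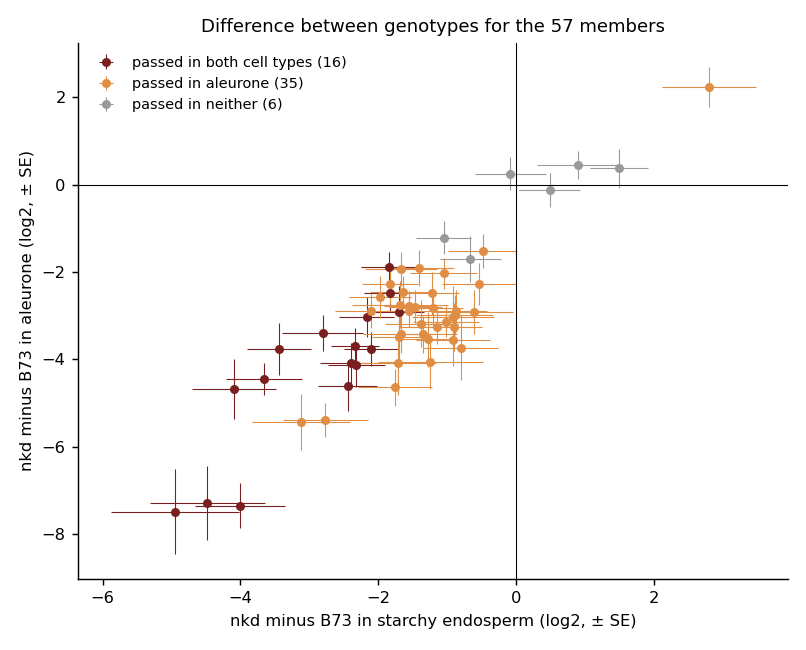
Difference between nkd and B73 (log2, ± SE from limma, n = 3 libraries per group) in starchy endosperm on the horizontal axis and in aleurone on the vertical axis, 1 point per member, coloured by where it passed an adjusted p of 0.05. The 16 members that passed in both cell types lie at the lower left, 35 passed in aleurone alone, and GRMZM2G085136 stands alone at the upper right.

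The storage protein genes among the members are alpha zeins, whose products fill the core of the protein body. Reads of the near-identical zein genes can be shared between copies, so the values of the single genes are uncertain. z1A1_3/z1A1_4 (GRMZM2G059620) had 19929, 3673 and 5247 RPM in nkd starchy endosperm, 1699, 281 and 116 in nkd aleurone, 136364, 94195 and 125228 in B73 starchy endosperm, and 92405, 26536 and 51041 in B73 aleurone. The nkd starchy endosperm libraries were all lower than the lowest B73 aleurone library, and B73 starchy endosperm replicate 2 stood only just above B73 aleurone replicate 1. In normalised reads it fell in nkd starchy endosperm by 4.95 ± 0.93 (log2 ± SE), at 189455 ± 200817 in nkd and 4305290 ± 1618780 in B73 (SD, n = 3 each; limma adjusted p = 0.0295). In nkd aleurone it fell by 7.5 ± 0.97, at 22542 ± 28791 in nkd and 2580910 ± 1988330 in B73 (limma adjusted p = 0.00148).

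z1A1_5 (GRMZM2G053120) behaved alike. It had 10701, 1979 and 2916 RPM in nkd starchy endosperm, 709.9, 120.5 and 69.1 in nkd aleurone, 51521, 36776 and 51219 in B73 starchy endosperm, and 33457, 13132 and 19897 in B73 aleurone. It fell by 4.48 ± 0.83 in nkd starchy endosperm (limma adjusted p = 0.0285) and fell by 7.29 ± 0.85 in nkd aleurone (limma adjusted p = 0.000941). For both zeins nkd replicate 1 was the highest of its group in either cell type. Without nkd starchy endosperm replicate 2 the adjusted p in starchy endosperm was 0.168 for z1A1_3/z1A1_4 and 0.143 for z1A1_5.

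Of the sucrose and starch genes, 4 are members. Sucrose synthase, encoded by sh1 (shrunken1, GRMZM2G089713), cleaves imported sucrose. It had 8999, 5037 and 3502 RPM in nkd starchy endosperm, 588, 356 and 115 in nkd aleurone, 25166, 20115 and 29335 in B73 starchy endosperm, and 9662, 12016 and 6487 in B73 aleurone. The 4 groups did not overlap except that the highest nkd starchy endosperm library lay within the B73 aleurone range. The ratio of starchy endosperm to aleurone was 16.6 in nkd and 2.65 in B73. sh1 fell in nkd aleurone by 5.44 ± 0.64, at 11194 ± 8024 normalised reads in nkd and 400269 ± 136438 in B73 (SD, n = 3 each; limma adjusted p = 0.000954). In starchy endosperm the difference was −3.12 ± 0.71, at 111608 ± 70409 in nkd and 907159 ± 369616 in B73, and did not pass (limma adjusted p = 0.0573); it passed with the replicate block (limma adjusted p = 0.0447).

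ADP-glucose pyrophosphorylase, which makes the sugar nucleotide for starch, has its large subunit from sh2 (shrunken2, GRMZM2G429899) and its small subunit from bt2 (brittle2, GRMZM2G068506). sh2 had 2556, 2358 and 1262 RPM in nkd starchy endosperm, 89.1, 72.3 and 106.7 in nkd aleurone, 2893, 3438 and 4167 in B73 starchy endosperm, and 2502, 1223 and 1361 in B73 aleurone. bt2 had 853, 1284 and 289 RPM in nkd starchy endosperm, 36.9, 22.5 and 34.3 in nkd aleurone, 3147, 2106 and 2123 in B73 starchy endosperm, and 1193, 1029 and 658 in B73 aleurone. For both subunits the nkd aleurone libraries were close together and far below every other library, while nkd starchy endosperm replicate 3 was the lowest of its group. The ratios of starchy endosperm to aleurone were 23.0 for sh2 and 25.9 for bt2 in nkd, and 2.06 for sh2 and 2.56 for bt2 in B73.

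Both subunit genes fell in nkd aleurone. sh2 fell by 4.65 ± 0.43, at 2717 ± 402 normalised reads in nkd and 75935 ± 47153 in B73 (SD, n = 3 each; limma adjusted p = 0.000348). bt2 fell by 5.39 ± 0.40, at 957 ± 253 in nkd and 41909 ± 18810 in B73 (limma adjusted p = 0.000116). In starchy endosperm neither passed, although every nkd library was lower than every B73 library. The differences there were −1.76 ± 0.54 for sh2 (limma adjusted p = 0.15) and −2.77 ± 0.62 for bt2 (limma adjusted p = 0.0546; with the replicate block 0.0178).

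Starch synthase I, encoded by ss1 (GRMZM2G129451), elongates short glucan chains. ss1 had 572, 341 and 309.9 RPM in nkd starchy endosperm, 48.1, 55.1 and 32.7 in nkd aleurone, 646, 658 and 508 in B73 starchy endosperm, and 201, 349 and 197 in B73 aleurone. On this scale nkd replicate 1 of the starchy endosperm lay within the range of the B73 starchy endosperm libraries. In normalised reads ss1 fell in nkd aleurone by 2.90 ± 0.36 (limma adjusted p = 0.00121), and in starchy endosperm the difference of −1.55 ± 0.42 did not pass (limma adjusted p = 0.103).

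FL1 (Floury1, GRMZM2G094532) encodes a membrane protein of the endoplasmic reticulum that organises zeins within the protein body. It had 41.4, 33.8 and 10.9 RPM in nkd starchy endosperm, 5.26, 5.12 and 3.75 in nkd aleurone, 80.02, 79.5 and 116.5 in B73 starchy endosperm, and 49.5, 26.5 and 35.2 in B73 aleurone. The lowest nkd starchy endosperm library, replicate 3, lay 2.08 times above the highest nkd aleurone library, just inside the rule. FL1 fell by 2.80 ± 0.59 in nkd starchy endosperm (limma adjusted p = 0.0418) and fell by 3.40 ± 0.42 in nkd aleurone (limma adjusted p = 0.00118). The starchy endosperm call was lost without B73 starchy endosperm replicate 1 (limma adjusted p = 0.148) and by edgeR (adjusted p = 0.0712).

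Alanine aminotransferase, which moves amino groups between alanine and 2-oxoglutarate, is the product of alt, named in 1 of the 2 RefSeq entries that list GRMZM2G088064. alt had 741, 704 and 325 RPM in nkd starchy endosperm, 128, 127 and 69.9 in nkd aleurone, 756, 997 and 947 in B73 starchy endosperm, and 337, 438 and 492 in B73 aleurone. The B73 libraries of each cell type were close together and nkd replicate 3 was the lowest in both cell types. alt fell by 2.46 ± 0.36 in nkd aleurone (limma adjusted p = 0.00259), and its difference of −1.63 ± 0.48 in starchy endosperm did not pass (limma adjusted p = 0.132).

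The organ size genes among the members are no storage genes. BIGE1 (Big embryo 1, GRMZM2G148937) encodes a transporter of the MATE type that limits embryo size and leaf initiation in maize. It had 6.13, 4.20 and 3.93 RPM in nkd starchy endosperm, 1.74, 0.347 and 1.04 in nkd aleurone, 23.6, 30.2 and 26.1 in B73 starchy endosperm, and 5.22, 13.5 and 9.71 in B73 aleurone. The nkd starchy endosperm libraries were close together, and 2 of the 3 lay below every B73 aleurone library. Its starchy endosperm means were 4.75 RPM in nkd and 26.6 in B73. BIGE1 thus met the mean of 10 through B73, and its direction there is not free of the rule. BIGE1 fell by 3.43 ± 0.47 in nkd starchy endosperm, at 88.6 ± 36.2 normalised reads in nkd and 929 ± 173 in B73 (SD, n = 3 each; limma adjusted p = 0.00978), and fell by 3.76 ± 0.59 in nkd aleurone, at 32.3 ± 23.2 in nkd and 382 ± 119 in B73 (limma adjusted p = 0.00354). Without B73 starchy endosperm replicate 1 the adjusted p in starchy endosperm was 0.0699.

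ZAR1 (GRMZM2G446201), a maize relative of the Arabidopsis organ size gene ARGOS, is listed in its RefSeq entry together with ZAR2. It had 8.23, 11.2 and 21.4 RPM in nkd starchy endosperm, 0.629, 0.347 and 1.18 in nkd aleurone, 15.05, 12.5 and 25.7 in B73 starchy endosperm, and 2.78, 7.35 and 4.25 in B73 aleurone. Replicate 3 was the highest in both starchy endosperm groups, which overlapped. ZAR1 fell by 3.19 ± 0.54 in nkd aleurone (limma adjusted p = 0.0048), and the difference of −1.37 ± 0.53 in starchy endosperm did not pass (limma adjusted p = 0.247). Of the 10 named members, 10 fell in nkd aleurone and 4 in nkd starchy endosperm, the 4 being z1A1_3/z1A1_4, z1A1_5, FL1 and BIGE1.

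**Figure D5:**
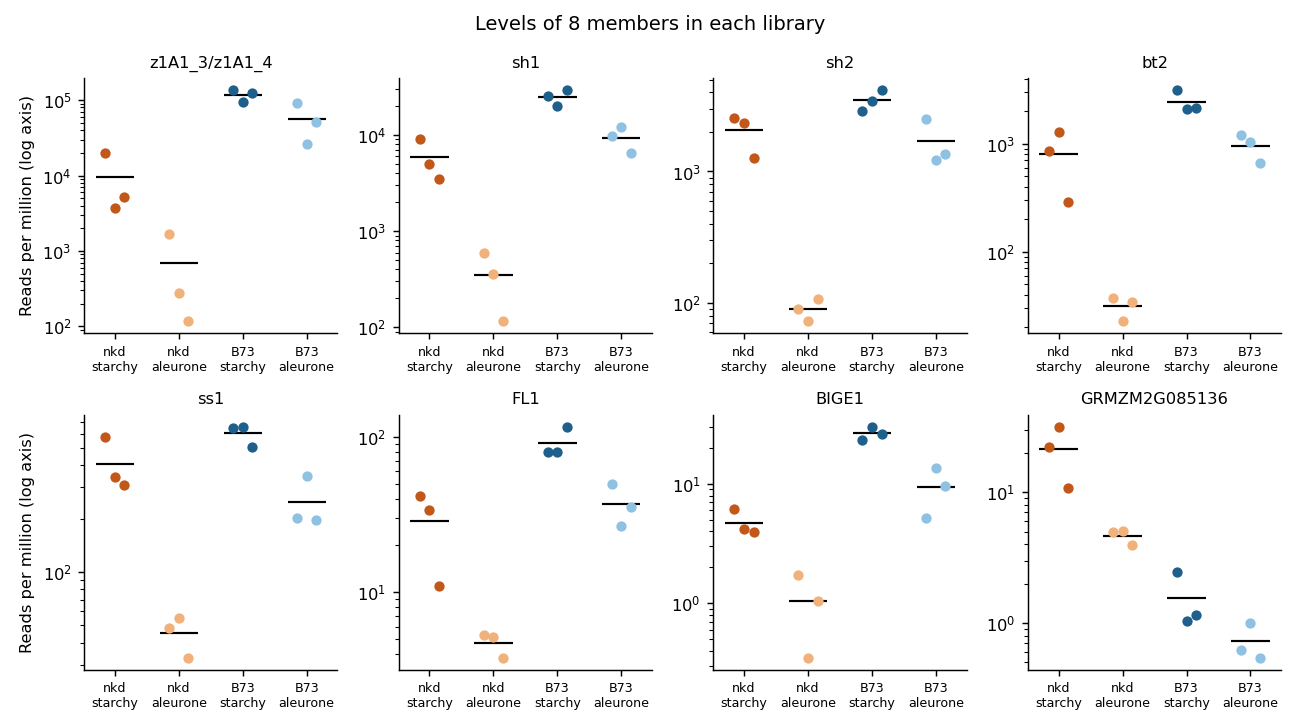
RPM (log axis) of 8 members in each library, points for the 3 replicates of a group and a bar at the group mean. For the 7 named genes the nkd aleurone points are lowest; for GRMZM2G085136 the 3 nkd starchy endosperm points are highest and every nkd aleurone point, from 3.98 to 5.01, lies above every B73 point.

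Among the 47 members without a name, 40 fell in nkd aleurone and 12 in nkd starchy endosperm. GRMZM2G078798 had the widest gap between cell types in nkd, a ratio of 50.7, against 2.60 in B73. It had 10.2, 8.80 and 2.42 RPM in nkd starchy endosperm, 0.222, 0.0867 and 0.113 in nkd aleurone, 60.02, 38.8 and 56.3 in B73 starchy endosperm, and 24.7, 15.7 and 19.3 in B73 aleurone. Its nkd aleurone values rest on 6, 4 and 5 reads, and every nkd starchy endosperm library lay below every B73 aleurone library. GRMZM2G078798 met the mean of 10 through B73, with starchy endosperm means of 7.13 RPM in nkd and 51.7 in B73. It fell by 7.35 ± 0.52 in nkd aleurone (limma adjusted p = 0.000102) and fell by 4.01 ± 0.65 in nkd starchy endosperm (limma adjusted p = 0.0182; 0.097 without B73 starchy endosperm replicate 1).

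GRMZM5G836322 had the widest gap in B73. It had 0.931, 2.68 and 6.35 RPM in nkd starchy endosperm, 0.37, 0.0434 and 0.158 in nkd aleurone, 22.9, 33.4 and 15.7 in B73 starchy endosperm, and 2.91, 3.83 and 3.36 in B73 aleurone. The nkd starchy endosperm libraries spread on either side of the B73 aleurone libraries, and the nkd aleurone values rest on 10, 2 and 7 reads. GRMZM5G836322 also met the mean of 10 through B73. It fell by 4.09 ± 0.61 in nkd starchy endosperm (limma adjusted p = 0.0141; 0.0836 without B73 starchy endosperm replicate 1) and fell by 4.68 ± 0.69 in nkd aleurone (limma adjusted p = 0.00253).

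GRMZM2G161274 and GRMZM2G014705 kept a gap of 2 times in both genotypes and fell in both cell types. GRMZM2G161274 had 114, 29.0 and 70.3 RPM in nkd starchy endosperm, 9.995, 4.71 and 7.84 in nkd aleurone, 409.6, 320.01 and 503 in B73 starchy endosperm, and 95.8, 103 and 152 in B73 aleurone. It fell by 3.66 ± 0.56 in nkd starchy endosperm (limma adjusted p = 0.0146; 0.0801 without B73 starchy endosperm replicate 1) and fell by 4.45 ± 0.36 in nkd aleurone (limma adjusted p = 0.000193). GRMZM2G014705 fell by 2.32 ± 0.41 in nkd starchy endosperm (limma adjusted p = 0.0238; 0.122 without B73 starchy endosperm replicate 1) and fell by 4.13 ± 0.51 in nkd aleurone (limma adjusted p = 0.00118).

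Some members kept their starchy endosperm level in nkd on the RPM scale. GRMZM2G392863 had 7192, 6594 and 4414 RPM in nkd starchy endosperm, 833, 186 and 93.3 in nkd aleurone, 5294, 7238 and 4087 in B73 starchy endosperm, and 2361, 3516 and 1580 in B73 aleurone. In RPM the starchy endosperm ranges of the genotypes overlapped almost wholly, while the nkd aleurone libraries lay below all others. In normalised reads GRMZM2G392863 fell in nkd aleurone by 3.73 ± 0.75 (limma adjusted p = 0.0106). Its difference in starchy endosperm was −0.80 ± 0.55 (limma adjusted p = 0.525) and 0.14 when scaled to the column sum. On the deposited values every nkd starchy endosperm library was lower than every B73 one, at 152003, 118371 and 68358 against 198020, 187703 and 175343. GRMZM5G843352 fell in nkd aleurone by 3.03 ± 0.72 (limma adjusted p = 0.0218; up to 0.0682 where 1 library was left out, the highest without nkd aleurone replicate 2). Its difference in starchy endosperm was −0.91 ± 0.59 (limma adjusted p = 0.51) and 0.03 when scaled to the column sum. In RPM the nkd mean was above the B73 mean in starchy endosperm for 15 of the 57 members and in aleurone for 5. The share over all genes was not counted. Scaled to the column sum, the median difference of all genes tested was itself 1.04 in starchy endosperm and 0.495 in aleurone.

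A few members were not lower in nkd in either cell type. GRMZM2G085136 had 463, 567 and 168 normalised reads in nkd starchy endosperm, against 91.7, 26.96 and 49.3 in B73 starchy endosperm, and 164, 156 and 111 in nkd aleurone, against 32.6, 37.9 and 20.4 in B73 aleurone. All nkd libraries lay above all B73 libraries in both cell types. It was higher in nkd aleurone by 2.23 ± 0.46 (limma adjusted p = 0.0114), and its difference of 2.81 ± 0.68 in starchy endosperm did not pass (limma adjusted p = 0.0735; 0.0513 with the replicate block; 0.0233 when scaled to the column sum).

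GRMZM2G160563 had 457, 541 and 435 normalised reads in nkd starchy endosperm, against 177, 165 and 161 in B73 starchy endosperm. The groups did not overlap, and the difference of 1.5 ± 0.42 did not pass (limma adjusted p = 0.11; 0.0269 when scaled to the column sum). In aleurone it had 148, 84.5 and 90.9 in nkd and 74.9, 109.9 and 63.02 in B73, which overlapped (log2 difference 0.37 ± 0.44). GRMZM2G071846, GRMZM2G061912 and GRMZM2G101393 also overlapped between the genotypes in both cell types, with log2 differences of 0.91, −0.08 and 0.49 in starchy endosperm and 0.45, 0.25 and −0.13 in aleurone. The sign for GRMZM2G061912 in starchy endosperm and for GRMZM2G101393 in aleurone turned positive, to 0.86 and 0.33, when scaled to the column sum. GRMZM2G003947 and GRMZM2G428391 completed the 6 members that did not pass in aleurone, with differences of −1.22 ± 0.38 (limma adjusted p = 0.0593) and −1.71 ± 0.53 (limma adjusted p = 0.0571).

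Set across the cell types, the nkd starchy endosperm level of a member was more often above than below its B73 aleurone level. In RPM, every nkd starchy endosperm library lay above every B73 aleurone library in 25 members and below in 3, and the mean was lower in 11. The share over all genes was not counted for this comparison. The rule also asks for B73 aleurone values below those of B73 starchy endosperm. It asks as well for nkd starchy endosperm values at least 2 times those of nkd aleurone. Both clauses favour the order seen. These values therefore only describe the libraries and carry no test.

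By their order in the RefSeq gene table, some members are neighbours. z1A1_4 and z1A1_5 are next to each other, and the entry of GRMZM5G836322 lies 2 genes from z1A1_3. GRMZM2G391936 and GRMZM2G131575 lie 10 genes apart, and GRMZM2G058358 and GRMZM2G023755 lie 7 genes apart.

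Most genes of the storage pathways are not members. Of 26 matched zeins, 22 met the nkd clause, 23 overlapped between the cell types in B73, 17 had a B73 ratio of means under 2, and 2 are members. Of 13 starch synthesis genes with a starchy endosperm mean of at least 10, 7 met the nkd clause, 7 overlapped in B73, 9 had a B73 ratio under 2, and 3 are members. bt1, which encodes the ADP-glucose transporter of the plastid, came closest among the genes that failed on this overlap alone: its lowest B73 starchy endosperm library was 0.998 of its highest B73 aleurone library. sh1 is 1 of 10 sucrose and sugar transport genes, and FL1 is 1 of 9 genes for folding in the endoplasmic reticulum and protein bodies. Of 9 storage product transcription factors and 12 genes of Opaque2-linked and amino acid metabolism, none is a member.

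Within these lists the genotype comparison gave more calls in aleurone, as it did over all genes tested (8.28% lower in nkd aleurone and 1.31% in nkd starchy endosperm). In nkd aleurone 24 of 26 tested zeins fell, 11 of 19 starch genes, 5 of 13 sugar genes, 4 of 9 folding genes, 5 of 13 transcription factors and 7 of 20 Opaque2-linked genes (limma), with none higher. In nkd starchy endosperm 8 of 26 zeins fell, 2 of 18 starch genes, 1 of 13 sugar genes, 2 of 9 folding genes, 1 of 13 transcription factors and 1 of 18 Opaque2-linked genes, with none higher. The median difference of the zeins was −5.70 in aleurone and −2.32 in starchy endosperm, and that of the starch genes −1.68 in aleurone and −1.10 in starchy endosperm. The starch genes that fell in starchy endosperm are not members, and sh2, bt2 and ss1 are among the 16 starch genes that did not pass there.

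Some members stand close to the limits of the rule, 19 of them within 10% of 1. Just inside the mean of 10 were GRMZM5G894518 at 10.5, GRMZM2G054155 at 10.9 and GRMZM2G085136 at 11.5 RPM, and just outside GRMZM2G305900 at 8.73, GRMZM2G175989 at 7.53 and pb1 (GRMZM2G300348) at 7.35. For the B73 libraries, the lowest starchy endosperm value over the highest aleurone value was 1.003 for GRMZM2G022090, 1.02 for z1A1_3/z1A1_4 and 1.03 for GRMZM2G085136, and just outside, after bt1, 0.995 for AF546188.1_FGT002 and 0.99 for GRMZM5G840487. The B73 ratio of means was 2.01 for GRMZM2G010196, 2.05 for GRMZM2G074517 and 2.06 for GRMZM2G022090, against 1.99, 1.98 and 1.98 for GRMZM2G015804, GRMZM2G111954 and GRMZM2G068566 outside. The nkd gap was 2.07 for GRMZM2G061912 and 2.08 for FL1 and GRMZM2G141386, against 1.996, 1.99 and 1.99 for GRMZM2G115839, GRMZM2G436295 and Bk2L6 (GRMZM2G167520) outside.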

How the data were processed

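The authors deposited 2 tables of signal values, normalised reads per annotated transcript, for 6 libraries each. FastQC, TopHat and DESeq are named in the submitters' processing notes, with no version; the genome build, strand use and treatment of multiply mapped reads are not given. In each library 100% of values were whole multiples of 1 step (tolerance 0.01), so reads were recovered. Of 63540 transcripts, the one with the highest mean stood for each of the 39656 genes. Levels across cell types are RPM (reads per 1000000 gene reads), not divided by length, so they are not compared between genes. Genotypes were compared on deposited values with limma 3.58.1 in R 4.3.3 (pseudocount 1, mean of at least 5, two-sided); edgeR 4.0.16 and DESeq2 1.42.0 on recovered reads were alternatives. The fits were tested on simulated data.

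Members and lists were chosen with earlier results of these data known. Named members were, by rule, up to 6 per list, the 10 highest, the 8 largest changes each way, the widest ratios and the 3 genes on either side of each threshold; 6 homonyms were removed from the 16 lists. Names came from RefSeq (18774 of 39656 identifiers matched). Per the labels, every flow cell carried 1 library of each group, so replicate numbers pair the libraries; same-numbered libraries had correlations of deviations of 0.0377, −0.00931 and −0.0451 in starchy endosperm and −0.130, 0.068 and −0.0196 in aleurone. Tables and plots were made with pandas 2.3.3, matplotlib 3.10.9 and numpy 2.4.6 in Python 3.11.15.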

Additional observations from a re-analysis of the deposited data

How the results depend on the processing

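The count of members called in starchy endosperm, 16, was 7 with no filter on low values, 8 by edgeR, 26 by DESeq2 and 25 in 1 fit over all 12 libraries, and 0 to 10 where 1 library was left out; the cause was not tested. With the replicate block it was 20. Against genes with a starchy endosperm mean of at least 10, a background chosen after seeing the data, the called shares of all genes were 2.22% lower and 0.867% higher in starchy endosperm and 8.81% lower and 5.39% higher in aleurone. The aleurone count, 51 in both directions, was 50 with the replicate block and 45 to 52 where 1 library was left out. The block gained sh1, bt2, GRMZM2G147399 (adjusted p 0.0308 against 0.0573) and GRMZM2G143400 (0.0317 against 0.0529) in starchy endosperm, lost GRMZM2G180418 in aleurone (0.0505 against 0.0299), and changed no other call of a member. The rule gave 128 genes (55 of the 57 among them) when the zeins were left out of the scaling, 205 (56 shared) with TMM scaling, 6 with the gap of 2 times in both genotypes, 34 with a mean of at least 50, and 53 to 92 where 1 library was left out. The share of reads in B73 starchy endosperm was 26% with transcripts summed and 4.56% without zeins, and in B73 aleurone 1.82% without zeins. Where 1 library was left out, the share was 2.53% to 4.32% in nkd starchy endosperm, 0.134% to 0.351% in nkd aleurone, 20% to 22.9% in B73 starchy endosperm and 7.31% to 11.5% in B73 aleurone. When scaled to the column sum, 11 members turned positive in starchy endosperm and 1 in aleurone, none of which passed in that cell type on either scale. Among them were GRMZM2G428391 and, with their values, GRMZM2G061912 in starchy endosperm (0.862 scaled to the column sum; −0.641 to 0.431 where 1 library was left out, with 0.01 and 0.431 positive), GRMZM2G392863 (0.14) and GRMZM5G843352 (0.034) there, and GRMZM2G101393 in aleurone (0.327 scaled to the column sum; −0.392 to 0.095 where 1 library was left out). Depth limits the members with few reads in nkd aleurone, such as GRMZM2G078798 and GRMZM5G836322. The members' SD had a median of 40.0% of the mean in nkd starchy endosperm, 44.7% in nkd aleurone, 24.3% in B73 starchy endosperm and 28.7% in B73 aleurone.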

Other observations

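GRMZM2G180418 and GRMZM2G180419, picked after their values were seen, ran in parallel over the libraries. GRMZM2G180418 had 187, 151 and 325 RPM in nkd starchy endosperm, 42.5, 31.1 and 18.4 in nkd aleurone, 149.8, 99.035 and 239.9 in B73 starchy endosperm, and 40.2, 78.1 and 70.5 in B73 aleurone. GRMZM2G180419 had 149, 106 and 274 in nkd starchy endosperm, 22.3, 11.8 and 6.33 in nkd aleurone, 122, 73.3 and 208 in B73 starchy endosperm, and 28.6, 47.2 and 54.4 in B73 aleurone. Within each starchy endosperm group both were lowest in replicate 2 and highest in replicate 3, and in nkd aleurone both were highest in replicate 1. Whether their reads are counted separately is not given in the sources used here.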
